A study of Mus musculus with 4 samples.

Results

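The 37 genes of the mouse mitochondrial genome were followed in RNA sequencing of Hepa1-6 cells, a mouse hepatocellular carcinoma line, with and without the activin receptor gene Acvr2a. They were taken as every gene whose symbol begins with mt-, which gave 37 of the 54838 genes listed: 13 for proteins, 2 for ribosomal RNA (rRNA) and 22 for transfer RNA (tRNA). The NC group held 2 libraries of cells with wild-type Acvr2a and the KO group held 2 libraries of Acvr2a knockout cells, which the design text calls subclones. Whether the KO libraries came from separate subclones or from 1 is not said, nor whether the libraries of a group came from separate cultures. The p-values therefore measure spread between these libraries, which may be technical. With 2 libraries a group, that spread was taken for each gene largely from all genes together, an estimate that weighed as 25.8 degrees of freedom. A p-value thus does not rest on the gene's own spread alone.

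Mitochondrial DNA is a small circle inside the mitochondrion, apart from the nuclear chromosomes. It is transcribed from both strands into long precursors, from which the tRNAs that lie between the other genes are cut out, freeing the messenger RNAs (mRNAs) and rRNAs. All of its proteins are subunits of the oxidative phosphorylation complexes: NADH dehydrogenase (complex I), cytochrome bc1 (complex III), cytochrome c oxidase (complex IV) and ATP synthase (complex V). The polymerase, ribosomal proteins, nucleases and tRNA synthetases that express these genes are encoded in the nucleus and imported, and liver cells carry many mitochondria.

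The KO libraries held more of both mitochondrial rRNAs, mt-Rnr1 (1.46-fold) and mt-Rnr2 (1.68-fold), than the NC libraries. Among the mRNAs, mt-Nd6 (1.60-fold) and mt-Nd5 (1.22-fold), both complex I subunits, were higher in KO. Lower in KO were mt-Nd3 (0.707-fold), mt-Atp6 (0.732-fold), mt-Nd4l (0.787-fold), mt-Cytb (0.790-fold) and mt-Nd1 (0.817-fold). The values of mt-Nd3 and mt-Atp6 include the reads of near-identical nuclear copies, which held most of each sum. This addition was chosen after the deposited division of reads was seen. As deposited, mt-Nd3 was not called (log2 fold change -0.013), and mt-Atp6 was also lower (-0.73). The 3 cytochrome c oxidase mRNAs did not pass the test with copies added, though mt-Co2 as deposited was called higher (0.56). No tRNA could be measured. Of the 5 falls, 4 were lost when library KO 1 was left out, while both rRNA rises remained whichever library was left out.

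Library totals lay between 11597923 and 13910582 counts. Acvr2a itself was read at 7.12 and 7.80 counts per 1000000 (CPM) in NC 1 and NC 2 and at 5.69 and 7.18 in KO 1 and KO 2, so its RNA level overlapped between the groups and does not check the labels. All 9 hepatocyte markers were read in at least 1 library, with summed TPM (transcripts per 1000000) of 4599 and 4404 in NC and 3373 and 3073 in KO. Apoe held most of that sum (3340 and 3207 TPM in NC, 1960 and 1619 in KO), while Alb (498 and 473 in NC, 624 and 713 in KO) and Trf (371 and 350 in NC, 586 and 547 in KO) were higher in KO. Afp (167 and 160 TPM in NC, 74.1 and 72.9 in KO) was lower in KO. So were Hnf4a (95.1 and 91.6 in NC, 54.5 and 47.5 in KO) and Foxa2 (118 and 113 in NC, 61.9 and 67.0 in KO). Apoa1, Apoa2 and Ttr held at most 39 counts in any library. Of the fibroblast or stellate list, Col3a1 was at 0 in every library, Dcn read 1032 and 1094 TPM in NC and 1228 and 1234 in KO, and counts in the order NC 1, NC 2, KO 1, KO 2 were 140, 157, 290 and 329 for Pdgfra and 6, 5, 38 and 41 for Col1a1. The endothelial list summed to at most 0.48 TPM with Cdh5 at 0. Of the leukocyte list Cd3e was at 0 in every library, Ptprc held at most 2 counts, and Cd68 of the leukocyte list read 24.04 and 27.73 TPM in NC and 55.54 and 67.62 in KO. The part of these differences in the results was not tested.

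Stretches of mitochondrial DNA have been copied into the nuclear chromosomes, and where such a copy is identical to its source a short read cannot be told from it. A search of every mitochondrial gene against the annotated mouse transcripts (GENCODE M21, GRCm38) found 7 mRNA genes with a copy of at least 99% identity over at least 100 bases. All 7 copies are unprocessed pseudogenes side by side on the minus strand of chromosome 1, within 4663 bases at chr1:24611535-24616197. The pairs of sequences are shown because they are so close. In the first 4 lines the capital marks the only differing base within the matched stretch. It is T3C for mt-Nd3 against Gm28438 and A1066T for mt-Co1 against Gm29216, counted from 1 at the mitochondrial gene's first base. In the 4 lines that follow, the capitals mark the last bases of the mitochondrial gene, which the copy's annotation lacks.
mt-Nd3: atTaacctgtacactgttatctt
Gm28438: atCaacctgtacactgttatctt
mt-Co1: ggaAttgttttatccaactcatcc
Gm29216: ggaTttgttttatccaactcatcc
mt-Co2: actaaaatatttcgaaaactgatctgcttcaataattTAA
Gm28661: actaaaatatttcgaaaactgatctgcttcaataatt
mt-Atp6: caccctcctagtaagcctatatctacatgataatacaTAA
Gm10925: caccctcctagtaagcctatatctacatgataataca

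Gm28661 matched 681 bases of mt-Co2, Gm10925 678 bases of mt-Atp6 and Gm28437 783 bases of mt-Co3, all without a mismatch. Gm28438 matched mt-Nd3 at 99.71% identity over 345 bases, and Gm29216 matched the 3′ part of mt-Co1 at 99.79% over 483 of its own 492 bases. Gm10222 and Gm28439 were identical to 294 bases of mt-Nd4l and 876 bases of mt-Nd4. The other 6 mRNAs, mt-Nd1, mt-Nd2, mt-Nd5, mt-Nd6, mt-Cytb and mt-Atp8, and both rRNAs had no copy at this identity. A further 10 copies at 90% to 99% identity held at most 10.25 counts in a library.

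The deposited counts placed most reads of 4 of these pairs on the nuclear copy. Of the reads of mt-Atp6 and Gm10925, 1.52% and 0.819% were assigned to mt-Atp6 in NC 1 and NC 2, and 1.62% and 0.533% in KO 1 and KO 2. For mt-Co2 and Gm28661 the mitochondrial part was 7.50%, 4.13%, 12.5% and 5.65% in the same order. It did not separate the groups for either gene. mt-Co3 received 2.14%, 2.38%, 4.32% and 1.68% of the reads it shared with Gm28437, highest in KO 1. mt-Nd3 received no read in NC 1 and KO 2, and 0.707% and 1.07% of the shared reads in NC 2 and KO 1. For mt-Co1, whose copy covers only its 3′ part, 92.7% and 93.6% stayed with the mitochondrial gene in NC against 89.7% and 90.8% in KO. mt-Nd4l kept every read, although its copy is identical over 294 of its 297 bases, and mt-Nd4 all but 3.16 counts in KO 2. These percentages are the quantification program's division of reads and carry no counting interval.

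**Figure D1:**
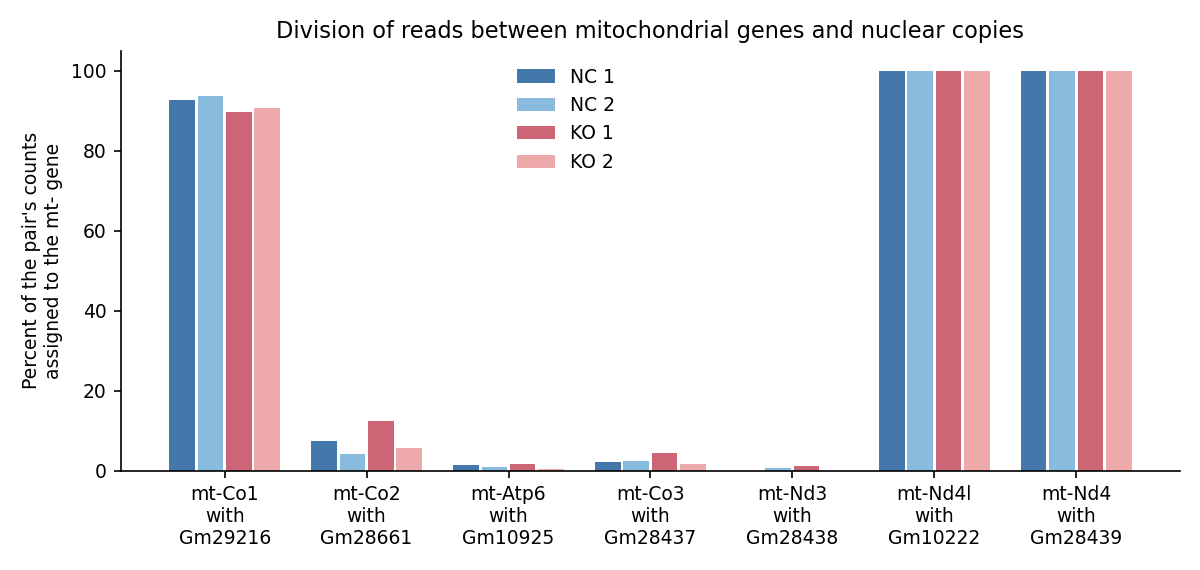
Percent of each pair's deposited counts that was assigned to the mitochondrial gene (vertical axis) for the 7 genes with a nuclear copy, 1 bar per library. mt-Co2, mt-Atp6, mt-Co3 and mt-Nd3 held between 0% and 12.5% of their pair, and mt-Co1, mt-Nd4l and mt-Nd4 between 89.7% and 100%.

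Every member was therefore described from 2 versions of the counts. In the first, each gene kept the counts the authors' program gave it. In the second, chosen after these divisions were seen, the counts of each of the 7 copies were added to its mitochondrial gene and all genes were fitted again. The sums still hold any read that truly came from chromosome 1. For mt-Co1, mt-Co2, mt-Co3, mt-Atp6 and mt-Nd3 the summed values lead, and for the other 10 measured members, whose counts the sums left as they were or moved by at most 3.16 counts, the fit of the assigned counts is given.

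The mitochondrial mRNAs as assigned took 8.04% and 7.38% of all counts in NC 1 and NC 2 and 6.65% and 7.91% in KO 1 and KO 2. Adding the copies brought the shares to 12.6% and 11.5% (NC) and to 10.1% and 12.6% (KO), so the copies held 34.0% to 37.3% of the summed mRNA reads. The groups overlapped on both versions. The 2 rRNAs took 0.0876% and 0.0796% of counts in NC and 0.129% and 0.147% in KO, without overlap. The widest 95% Wilson interval was 0.0191 percentage points to either side for the mRNAs and 0.00204 for the rRNAs, which covers counting error only.

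Levels of different genes were compared per kilobase of effective length, the number of start positions a fragment can take in a gene, on the summed counts. In NC the order was led by mt-Atp6 with 41231 ± 2850 CPM per kilobase (SD, n = 2), mt-Co2 with 34545 ± 3845, mt-Co1 with 25850 ± 1119 and mt-Nd1 with 22647 ± 1258. mt-Co3 (15899 ± 692) and mt-Nd2 (10106 ± 443) followed. mt-Cytb (8539 ± 763), mt-Nd4 (8216 ± 1125) and mt-Nd3 (8086 ± 1156) were neighbours whose libraries overlapped. The lowest mRNA levels were those of mt-Nd4l (3150 ± 653) and mt-Nd6 (3085 ± 865), which overlapped each other in NC, and of mt-Nd5 (1796 ± 56.2). Every mRNA therefore stood above the rRNAs, mt-Rnr2 at 442 ± 30.8 and mt-Rnr1 at 355 ± 31.5 CPM per kilobase. Whether the libraries were made from polyadenylated or rRNA-depleted RNA is not given in the sources used here. Either step can change the share of rRNA reads, so this order is one of reads in the libraries. How far the rRNA reads stand for rRNA levels in the cells was not tested.

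In KO the order of levels changed at 3 places. mt-Co2 (35966 ± 8319) stood above mt-Atp6 (30309 ± 7708), although their KO libraries overlapped. mt-Nd6 rose to 4969 ± 17.1 and stood above mt-Nd4l at 2519 ± 484, without overlap. mt-Nd4 (6988 ± 1234) and mt-Cytb (6759 ± 1016) also exchanged places within their spread. mt-Atp8 is not placed in this order, because its effective length of 9.66 to 10.98 bases makes its level per kilobase unreliable. That of mt-Nd4l, 66.52 to 70.94 bases, is the shortest of the ranked genes, so its place in the order is uncertain too.

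The mRNA levels differed between libraries of 1 group as well. All 13 mRNAs were higher in KO 2 than in KO 1, by 1.02-fold for mt-Nd6 to 2.44-fold for mt-Atp8 on the summed counts. In NC, 12 of the 13 were higher in NC 1 than in NC 2, at most 1.52-fold for mt-Nd6, and mt-Nd4l was lower at 0.788-fold. The rRNAs followed the same order, at 1.14-fold and 1.11-fold in NC and 1.12-fold and 1.18-fold in KO.

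**Figure D2:**
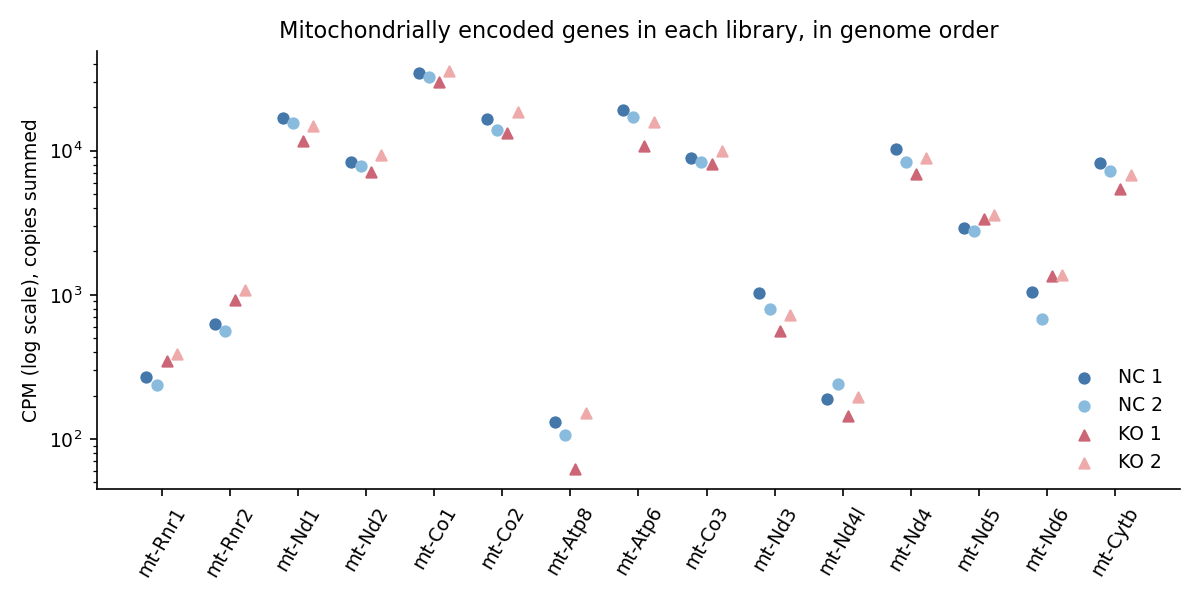
Level of the 15 measured mitochondrial genes in each library in CPM on a log axis, in their order along the mitochondrial genome, with nuclear copies summed (circles NC, triangles KO). Both KO libraries lie above both NC libraries for mt-Rnr1, mt-Rnr2, mt-Nd5 and mt-Nd6, and below them for mt-Nd1, mt-Atp6, mt-Nd3 and mt-Cytb.

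The 2 rRNAs form the core of the small (mt-Rnr1) and large (mt-Rnr2) subunit of the mitochondrial ribosome. mt-Rnr1, at chrM:70-1024 on the plus strand, read 271 and 237 CPM in NC 1 and NC 2 and 350 and 392 CPM in KO 1 and KO 2. Both KO libraries were above both NC libraries, and the log2 fold change was 0.55 ± 0.096 (SE; edgeR quasi-likelihood, Benjamini-Hochberg adjusted p = 5.86e-05). mt-Rnr2, at chrM:1094-2675, read 624 and 563 CPM in NC and 914 and 1075 CPM in KO, again without overlap. Its log2 fold change was 0.75 ± 0.099 (edgeR adjusted p = 1.52e-06). Both genes thus rose, 2 of 2, where 37.9% of the 12510 genes tested were called and 19.7% were called higher.

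In TPM, the authors' length-scaled unit, mt-Rnr1 read 402 and 372 in NC against 570 and 609 in KO. On log2(TPM + 1) with limma its fold change was 0.61 on the log2 scale and that of mt-Rnr2 was 0.80, and both passed. Set against the mRNAs of the same library with copies summed, the rRNAs took 6.956 (NC 1) and 6.917 (NC 2) counts per 1000 mRNA counts, against 12.80 (KO 1) and 11.64 (KO 2). This ratio does not depend on how libraries are scaled and did not overlap between the groups. An exact two-sided permutation test of 2 against 2 libraries cannot go below p = 0.333.

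Other structural and predicted non-coding RNAs were read beside the rRNAs. Rn7sk, the RNA that holds back a transcription elongation kinase, averaged 4.21 ± 1.88 CPM in NC and 1.501 ± 0.238 in KO, a log2 fold change of -1.46 ± 0.36 (edgeR adjusted p = 0.00175). Rpph1, the RNA of nuclear RNase P, averaged 2.38 ± 0.612 CPM in NC and 3.83 ± 0.386 in KO (edgeR adjusted p = 0.0733). The signal recognition particle RNAs Rn7s1 and Rn7s2, listed with the same counts, had a log2 fold change of -0.43 ± 0.42 (edgeR adjusted p = 0.437). AY036118 counts were 6227 (NC 1), 2434 (NC 2), 1035 (KO 1) and 809 (KO 2), a log2 fold change of -2.38 ± 0.25 (edgeR adjusted p = 4.46e-08). Gm42418 fell by 0.28 on the log2 scale (edgeR adjusted p = 0.0449), and Gm26917 had a value of 0.10 (edgeR adjusted p = 0.427). Rmrp, with counts of 2 (NC 1), 0 (NC 2), 1 (KO 1) and 0 (KO 2), was read too but not tested. Of the 7 tested RNAs, 3 fell, where 18.2% of all 12510 genes tested were called lower. These 7 include both Rn7s1 and Rn7s2. All were chosen after their values were seen, and their part in the rRNA result was not tested.

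Of the 13 mRNAs with copies summed, 2 rose and 5 fell, where 38.2% of the 12505 genes tested were called, 19.8% higher and 18.4% lower. Their median log2 fold change was -0.15, against -0.0037 for all genes tested. For 6 of 13, KO and NC libraries did not overlap, a smaller share than the 69.4% of all genes. On the assigned counts 3 rose and 4 fell, where 18.2% of all genes were called lower, because mt-Co2 was then called higher and mt-Nd3 was not called. On log2(TPM + 1) with limma only mt-Nd6 passed. The balance turned on the KO libraries: with copies summed, 4 rose and 1 fell without KO 1, and 1 rose and 7 fell without KO 2. Without KO 1, mt-Co2 was among the rises (0.27).

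Complex I, which takes electrons from NADH, has 7 of the mRNAs. With copies summed 2 rose and 3 fell, where 19.8% of all genes tested were called higher and 18.4% lower. mt-Nd6, the only mRNA on the minus strand (chrM:13552-14070), read 1038 and 681 CPM in NC and 1361 and 1383 CPM in KO. The strand used in counting is not given, so these counts may include reads of plus-strand RNA from the same bases. Both KO libraries were above NC 1 and NC 2, which themselves differed more than the KO libraries did. The log2 fold change was 0.68 ± 0.12 (edgeR adjusted p = 0.000107). Set against the 12 mRNAs of the plus strand, mt-Nd6 took 8.14 and 5.93 counts per 1000 in NC and 14.0 and 11.1 in KO. Its call was lost with DESeq2 (0.68) and with robust estimation of the spread (0.68), and it was kept whichever library was left out.

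mt-Nd5, at chrM:11742-13565, meets mt-Nd6 tail to tail on the other strand with 14 shared bases, and its reads there cannot be told from those of mt-Nd6 since the strand used in counting is not given. It read 2911 and 2775 CPM in NC and 3337 and 3606 CPM in KO, without overlap. The log2 fold change was 0.29 ± 0.097 (edgeR adjusted p = 0.0202). Without NC 2 (0.25) or without KO 2 (0.23) the call was lost. As a share of mRNA reads mt-Nd5 took 22.65 and 24.01 counts per 1000 in NC and 33.77 and 28.62 in KO.

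mt-Nd1, at chrM:2751-3707, lies just downstream of the rRNAs on the same strand, with the leucine tRNA gene mt-Tl1 between them. It read 16915 and 15514 CPM in NC and 11731 and 14756 CPM in KO, so that KO 2 came close to NC 2 and KO 1 stood lowest. The log2 fold change was -0.29 ± 0.11 (edgeR adjusted p = 0.0364). The call was lost without NC 1 (-0.24), without KO 1 (-0.14) and with library totals as the only scaling (-0.26). The fall of mt-Nd1 thus stood beside a rise of both genes upstream of it.

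mt-Nd3, at chrM:9459-9806, gave 1026 and 804 CPM in NC and 563 and 730 CPM in KO with the reads of Gm28438 added, without overlap. The log2 fold change was -0.50 ± 0.11 (edgeR adjusted p = 0.000797), and the call was kept whichever library was left out but was lost with DESeq2 (-0.50). As assigned, mt-Nd3 held 0 counts in both NC 1 and KO 2, 78.71 in NC 2 and 79.41 in KO 1, which follows no group. Nearly all of the summed reads stood under Gm28438, whose own log2 fold change was -0.50 ± 0.12 (edgeR adjusted p = 0.00122).

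mt-Nd4l and mt-Nd4 lie in a row at chrM:9877-10173 and chrM:10167-11544 with 7 shared bases and are kept on 1 transcript. mt-Nd4l read 191 and 242 CPM in NC and 145 and 196 CPM in KO, where KO 2 lay above NC 1. Its log2 fold change was -0.35 ± 0.12 (edgeR adjusted p = 0.0206). The call was lost without NC 2 (-0.16), without KO 1 (-0.14), with DESeq2 (-0.34) and with robust estimation (-0.35). mt-Nd4 read 10271 and 8415 CPM in NC and 6931 and 8933 CPM in KO, overlapping, with a log2 fold change of -0.24 ± 0.12 (edgeR adjusted p = 0.109). mt-Nd2, at chrM:3914-4951, read 8332 and 7776 CPM in NC against 7116 and 9313 in KO. The KO libraries of mt-Nd2 lay on either side of both NC libraries, and its log2 fold change was 0.028 ± 0.11 (edgeR adjusted p = 0.868).

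Complex III, which passes electrons from ubiquinol to cytochrome c, has mt-Cytb as its only mitochondrial gene (chrM:14145-15288). It read 8222 and 7200 CPM in NC and 5432 and 6748 CPM in KO. Both KO libraries were below both NC libraries, and the log2 fold change was -0.34 ± 0.11 (edgeR adjusted p = 0.0148). The call was lost without NC 1 (-0.25) and without KO 1 (-0.19).

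Complex IV, which reduces oxygen, has 3 mRNAs, and none passed the test with copies summed. mt-Co1, at chrM:5328-6872, gave 34810 and 32602 CPM in NC and 30032 and 35946 CPM in KO, the most reads of any member in every library. KO 1 was the lowest and KO 2 the highest library. The 95% interval of its log2 fold change ran from -0.26 to 0.19. mt-Co2, at chrM:7013-7696, gave 16606 and 14004 CPM in NC and 13218 and 18510 in KO (interval -0.20 to 0.30). mt-Co3, at chrM:8607-9390, gave 8942 and 8321 CPM in NC and 8041 and 10030 in KO (interval -0.16 to 0.29). The same order of KO libraries, KO 1 below and KO 2 above both NC libraries, held for all 3.

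The assigned counts of complex IV give another account. mt-Co2 then read 1246 and 578 CPM in NC and 1650 and 1045 in KO, overlapping, and was called higher at a log2 fold change of 0.56 ± 0.19 (edgeR adjusted p = 0.0236). The call was lost without NC 2 (0.11), without KO 1 (0.20), with DESeq2 (0.57) and with robust estimation (0.56). Its copy Gm28661, which held most of the pair's reads in every library, had a log2 fold change of 0.012 ± 0.13 (edgeR adjusted p = 0.955). mt-Co3 as assigned had a log2 fold change of 0.40 ± 0.17 (edgeR adjusted p = 0.0553) and Gm28437 one of 0.057 ± 0.11. For mt-Co1 the assigned value was -0.076 ± 0.11, and Gm29216 was called higher at 0.47 ± 0.10 (edgeR adjusted p = 0.000732).

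Complex V makes ATP and has 2 mitochondrial mRNAs, mt-Atp8 (chrM:7766-7969) and mt-Atp6 (chrM:7927-8607), which share 43 bases of 1 transcript. The end of mt-Atp8 is shown with those shared bases in capitals, since a fragment inside them belongs to both genes.
mt-Atp8: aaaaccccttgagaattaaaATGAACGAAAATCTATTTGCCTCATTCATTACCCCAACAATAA

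mt-Atp6 with the reads of Gm10925 gave 19142 and 17138 CPM in NC and 10848 and 15710 CPM in KO. Both KO libraries were lower than both NC libraries, KO 1 by far the more. The log2 fold change was -0.45 ± 0.12 (edgeR adjusted p = 0.00494), and the call was lost without KO 1 (-0.21) and with DESeq2 (-0.45). As assigned, mt-Atp6 read 291, 140, 176 and 83.8 CPM in NC 1, NC 2, KO 1 and KO 2, with a log2 fold change of -0.73 ± 0.22 (edgeR adjusted p = 0.00972) that was lost without NC 1 (-0.12), with DESeq2 (-0.73) and with robust estimation (-0.73). Gm10925 alone had a log2 fold change of -0.45 ± 0.12 (edgeR adjusted p = 0.00587). mt-Atp8 read 131 and 106 CPM in NC and 61.9 and 151 CPM in KO. The KO libraries of mt-Atp8 lay on either side of NC, and its log2 fold change of -0.15 ± 0.20 did not pass (edgeR adjusted p = 0.573).

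**Figure D3:**
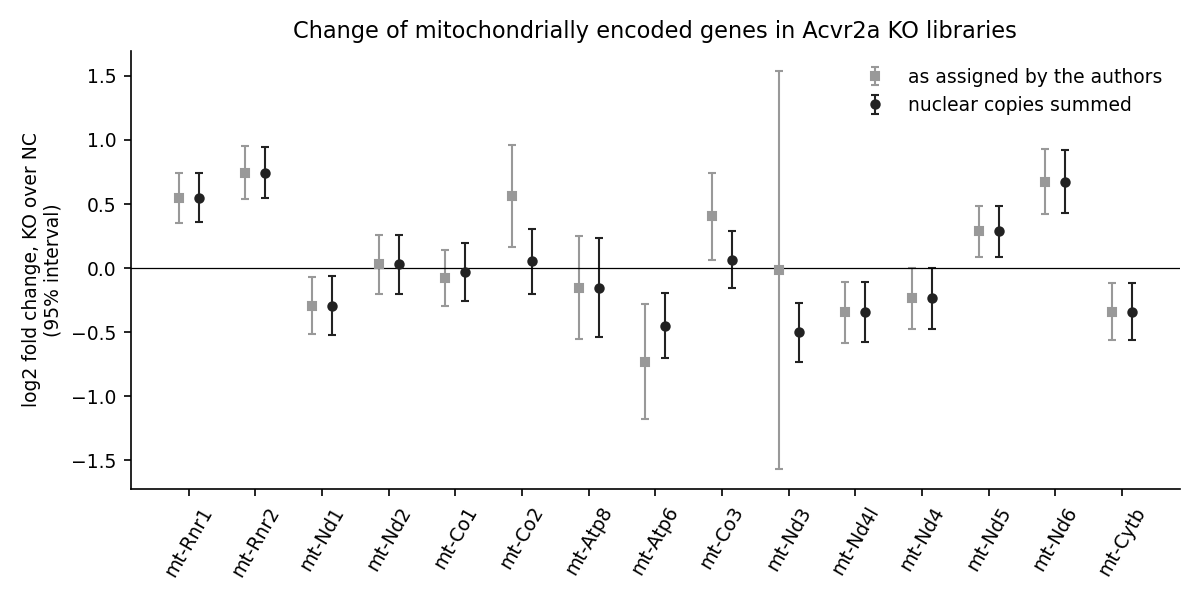
log2 fold change of KO over NC with its 95% interval for the 15 measured mitochondrial genes, as assigned by the authors (grey squares) and with nuclear copies summed (black circles). The versions part for mt-Co2 (0.56 and 0.052), mt-Co3 (0.40 and 0.066), mt-Atp6 (-0.73 and -0.45) and mt-Nd3 (-0.013 and -0.50).

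The 22 tRNA genes carry amino acids to the mitochondrial ribosome and are 59 to 75 bases long. None was assigned a count in any library. The files give each of them an effective length of 0, while the effective length of long genes was 238 to 245 bases below their full length, and none of the 6279 genes with an effective length of 0 in every library held a count. The zeros are therefore no measurement of tRNA, and no limit on its level follows from them. The longest and the shortest of the set, mt-Tl1 (chrM:2676-2750) and mt-Ts2 (chrM:11613-11671), are shown to make the size plain.
mt-Tl1: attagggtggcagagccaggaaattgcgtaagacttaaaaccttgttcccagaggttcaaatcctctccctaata
mt-Ts2: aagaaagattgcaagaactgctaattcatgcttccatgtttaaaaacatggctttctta

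The nuclear genes that copy, transcribe, process and translate mitochondrial DNA were described from 7 lists of 115 genes, of which 111 were tested. Among these 1 was called higher and 27 lower, 25.2% of the tested genes where 37.9% of all genes were called, 19.7% higher and 18.2% lower, and their median log2 fold change was -0.12. On log2(TPM + 1) with limma 9 were called. The mtDNA transcription list had 0 of 9 called. Its polymerase Polrmt read 37.6 and 33.7 CPM in NC and 33.7 and 31.2 in KO, a log2 fold change of -0.14 ± 0.11 (edgeR adjusted p = 0.361). Tfam, which packages and starts transcription of mitochondrial DNA, read 28.2 and 28.1 CPM in NC and 27.5 and 25.2 in KO, at -0.097 ± 0.12 (edgeR adjusted p = 0.552). Neither passed the test.

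Of 17 replication and maintenance genes, 1 rose and 3 fell, where 19.7% of all genes were called higher and 18.2% lower. Tk2, the mitochondrial thymidine kinase, read 9.32 and 9.39 CPM in NC and 14.6 and 13.8 in KO, a log2 fold change of 0.61 ± 0.16 (edgeR adjusted p = 0.00348). Dna2, a nuclease and helicase that also works in the nucleus, read 12.2 and 12.1 CPM in NC and 5.77 and 4.66 in KO, at -1.22 ± 0.19 (edgeR adjusted p = 1.33e-05). Both changes left no overlap between the groups. Rnaseh1, which removes RNA from DNA hybrids, and Mgme1, a mitochondrial exonuclease, had log2 fold changes of -0.80 and -0.45. Polg, the DNA polymerase, read 45.0 and 44.9 CPM in NC and 49.5 and 42.0 in KO and did not pass (0.024 ± 0.11, edgeR adjusted p = 0.886).

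The RNA processing and decay list had 9 of 22 genes lower (40.9%) and 0 higher, against 18.2% and 19.7% of all genes. Rexo2, an exonuclease that clears the shortest RNA fragments, read 68.4 and 65.3 CPM in NC and 33.5 and 30.9 in KO, a log2 fold change of -1.05 ± 0.10 (edgeR adjusted p = 7.68e-09). Fastkd2, which binds mt-Rnr2 and takes part in building the large ribosomal subunit, read 37.1 and 36.3 CPM in NC and 18.1 and 19.6 in KO, at -0.96 ± 0.12 (edgeR adjusted p = 5.76e-07). It fell in the libraries in which mt-Rnr2 rose, and a link between these changes was not tested. Lrpprc, which stabilises mitochondrial mRNAs, read 86.9 and 86.1 CPM in NC and 63.4 and 58.6 in KO, at -0.50 ± 0.095 (edgeR adjusted p = 0.000146). Its partner Slirp read 17.9 and 18.6 CPM in NC and 14.6 and 17.4 in KO and did not pass (-0.19 ± 0.14, edgeR adjusted p = 0.312). Angel2 fell by 0.60 on the log2 scale.

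The list of rRNA and tRNA modification enzymes had 5 of 21 lower (23.8%) and 0 higher, where 18.2% of all genes were called lower, a share near that of the list. The named members were the pseudouridine synthases Trub2 (-0.77) and Pus1 (-0.59), the queuine transferase subunit Qtrt1 (-0.70), and Mrm3 (-0.64), which methylates mt-Rnr2. Translation factors had 4 of 13 lower (30.8%, against the same 18.2%): the elongation factors Gfm1 (-0.70), Tufm (-0.41) and Tsfm (-0.39), and Oxa1l (-0.42), which inserts newly made subunits into the inner membrane. Of 20 aminoacyl-tRNA synthetases 4 were lower (near the 18.2% of all genes), Yars2 (-0.85), Ears2 (-0.52), Lars2 (-0.36) and Gars (-0.27), the last of which also serves the cytosol. Of 9 regulators of mitochondrial biogenesis 2 were lower (22.2%, also near it), the coactivators Ppargc1a, at 9.76 and 10.7 CPM in NC and 5.16 and 6.22 in KO (-0.85 ± 0.19, edgeR adjusted p = 0.00106), and Pprc1 (-0.59).

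Of the 22 named nuclear genes that passed, 15 kept their call whichever library was left out. The other 7 were Rnaseh1 (lost without NC 1 at -0.49, KO 1 at -0.73 or KO 2 at -0.88), Mgme1 (NC 2 at -0.41, KO 2 at -0.27), Mrm3 (NC 1 at -0.55, KO 2 at -0.57), Tsfm (NC 1 at -0.37, NC 2 at -0.42, KO 2 at -0.25), Ears2 (NC 1 at -0.49, KO 2 at -0.34), Lars2 (NC 1 at -0.20, KO 2 at -0.30) and Gars (NC 1 at -0.28, NC 2 at -0.26, KO 2 at -0.20). With DESeq2 all of these but Gars were lost too. Exons of Ears2, Gfm1, Mgme1, Mrm3, Oxa1l, Polg, Pprc1, Pus1, Slirp, Trub2 and Tsfm overlap a gene on the other strand in the annotation, so their counts are uncertain while the strand used in counting is not known.

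**Figure D4:**
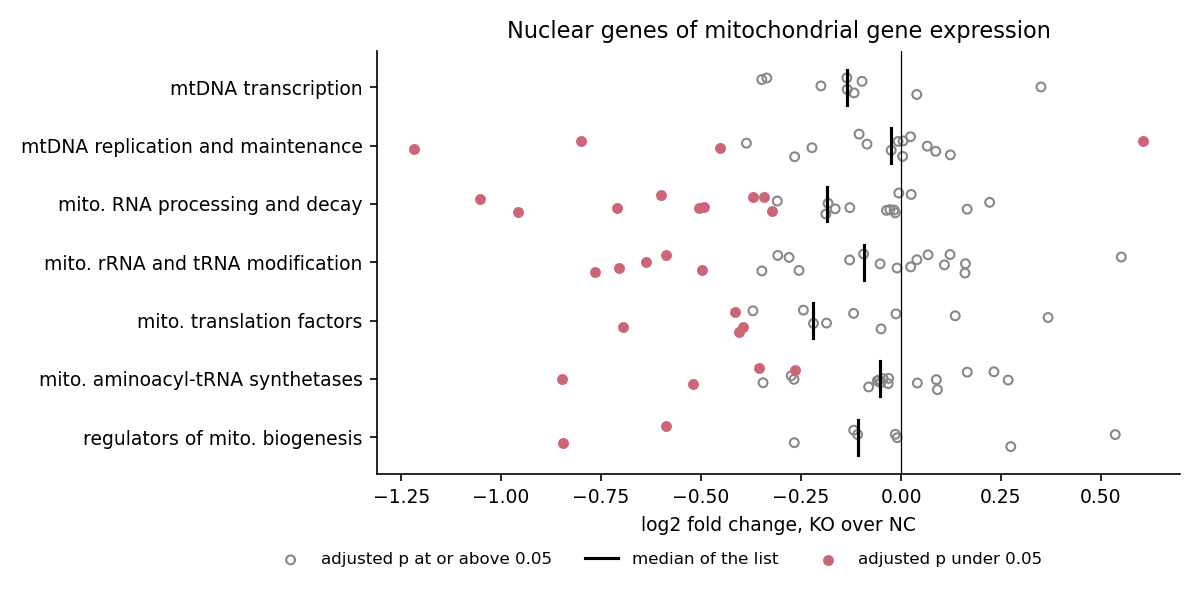
log2 fold change of KO over NC for the 111 tested nuclear genes of mitochondrial gene expression, 1 row per list, with genes past an edgeR adjusted p of 0.05 filled and the list's median as a bar. The only filled point to the right of 0 is Tk2 at 0.61, and the farthest to the left is Dna2 at -1.22.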

How the data were processed

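RNA libraries of 4 Hepa1-6 samples were made from total RNA with a directional kit, per the labels' protocols. The authors deposited 1 table per library with expected counts (estimated reads per gene, not normalized) and TPM, per the file headers. The submitters' processing notes name FastQC, STAR, RSEM, DESeq2 and the builds GRCm38 and mm10; versions, annotation and strand setting are not given in the sources used here. RSEM divides reads among genes they fit. The deposited FPKM column was not used.

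Expected counts were rounded (at most 0.000188% of a library's total), filtered with filterByExpr, scaled with TMM (factors 0.981 to 1.02) and tested with edgeR 4.0.16 (R 4.3.3; glmQLFit and glmQLFTest, group as the only term, Benjamini-Hochberg over all genes tested, threshold 0.05). CPM are counts per 1000000 of the scaled library. Gene positions, sequences and overlaps are from GENCODE M21 (GRCm38), which matched all 37 members by ID and length. Nuclear copies were sought with nucleotide BLAST. Alternatives used DESeq2 1.42.0, limma 3.58.1 on log2(TPM + 1) or log2(TPM + 0.1), other scalings, no filter, robust estimation, a replicate block and each library left out.

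All mt- genes are named, with up to 4 members of each nuclear list with the lowest p past 0.05, Tfam, Polrmt, Polg, Lrpprc, Slirp and Ppargc1a, and the nuclear copies that passed the filter. A further gene resembling mt- genes, Gm10221, passed the filter but had no match at 99% identity (log2 fold change 0.33, edgeR adjusted p = 0.562). The members and lists were chosen with earlier results of these data known. Libraries of a group differed by more than counting noise (chi-square per degree of freedom 6.88 in NC and 9.44 in KO).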

Additional observations from a re-analysis of the deposited data

How the results depend on the processing

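With limma on log2 TPM, 2158 (pseudocount 1) or 2099 (0.1) of all genes passed, against 4741 with edgeR on counts, and 0 with no filter (4506 at an unadjusted p under 0.05). The share of calls that were higher in KO moved from 51.9% to 68.0% on TPM with pseudocount 1. On TPM 1 mitochondrial mRNA passed on either version of the counts, mt-Nd6, and 0 unfiltered, where 0 rRNAs passed too. DESeq2 called 3 mRNAs on either version and robust estimation 3 on the assigned counts. The nuclear lists had 9, 10 and 0 calls on TPM. mRNA shares were 10.4% in NC and 10.1% in KO of TPM, and 12.1% and 11.3% of counts with copies added. Directions turned for genes that did not pass in the main fit. Library totals alone gave 0.019 for mt-Nd3 as assigned and 0.00065 for mt-Co1 summed. DESeq2 gave 0.070 for mt-Nd3. TPM gave 0.072 or 0.073 for mt-Nd3, 0.16 for mt-Co1 summed, 0.011 or 0.0079 for Tfam and -0.17 or -0.18 for Polg, and no filter gave -0.0018 for Gm28661. With 1 library left out, log2 fold changes ran from -0.18 to 0.21 for mt-Nd2, -0.22 to 0.056 for mt-Co1, -0.94 to 0.35 for mt-Atp8, -0.21 to 0.83 for mt-Co3 and -8.27 to 8.25 for mt-Nd3, which is set by its zeros. They ran from -0.17 to 0.093 for summed mt-Co1, -0.21 to 0.27 for mt-Co2, -0.10 to 0.22 for mt-Co3, -0.14 to 0.23 for Gm28437, -0.32 to 0.28 for Gm28661 and -0.10 to 0.14 for Polg. For mt-Atp8 and Gm28661 the sign depended on the KO library left out. The values were 0.35 and 0.28 without KO 1, and -0.94 and -0.32 without KO 2. The cause was not tested. The replicate block called 5006 genes, 9 mRNAs as assigned and 8 summed, both rRNAs and 32 nuclear genes, and turned Gm28661 to -0.015; same-numbered libraries did not deviate together (correlation -0.012). In all, 530 of the recomputed values kept direction and side of the threshold, 135 lost and 16 gained the call, and 33 turned.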
